A study of Mus musculus with 2 samples.

Results

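The genes described here encode the respiratory chain and the ATP synthase, together with every other gene of the mitochondrial genome. They were chosen by symbol: all mt- genes, the complex I subunits named Nduf followed by a, b, c, s or v and a number (without Ndufa4l2), Cox4 to Cox8, Uqcr and Atp5. The rule found 119 of the 25906 genes in the files. Of these, 82 are nuclear (38 of complex I, 8 of complex III, 19 of complex IV and 17 of complex V) and 37 are mitochondrial (13 mRNAs, 2 rRNAs and 22 tRNAs). The product of Ndufa4 is known as a complex IV subunit, and the symbol places it here with complex I.

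They were measured in induced myogenic progenitor cells (iMPCs), mouse cells of the skeletal muscle lineage made from embryonic fibroblasts, in 2 libraries of 10x 3′ tags. The MyoD-KO library came from 1 clone without MyoD, the myogenic transcription factor encoded by Myod1, and the MyoD-WT library from 1 clone with it; the strain label of both is Myod1tm1Jae. Both clones were reprogrammed by overexpression of Myf6, a related factor, with forskolin (5 µM), RepSox (5 µM) and CHIR99021 (3 µM), together called F/R/C. Myf6-independent colonies were picked and expanded to passage 4 in iMPC medium that held F/R/C and bFGF at 10 ng/mL. With 1 library per genotype there is no replicate and no test: genotype and clone cannot be told apart, all differences are descriptions of these libraries, and the 95% intervals cover counting error only.

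The respiratory chain passes electrons from NADH through complexes I, III and IV to oxygen, and complex V uses the proton gradient they build to make ATP. Most subunits are encoded in the nucleus, while a small set is encoded by mitochondrial DNA and transcribed there from long polycistronic RNAs. Some complex IV subunits have tissue forms: Cox6a2, Cox7a1 and Cox8b are the forms of heart and skeletal muscle, and Cox6a1, Cox7a2 and Cox8a are found in most tissues. Muscle differentiation is known for a switch between these forms and for a growing mitochondrial content.

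After filtering, 5782 of 7670 KO barcodes and 7318 of 8191 WT barcodes remained, with 253038707 UMIs in KO and 279122888 in WT, and 14 barcodes occurred in both libraries. Levels of nuclear genes are counts per 1000000 UMIs outside mt- genes (CPM). Myod1 itself was at 68.5 CPM in the KO library and 174 CPM in the WT library; a 3′ tag may lie outside the disrupted part of the gene, so this level does not check the label. Cells were sorted into states by genes that are no members: muscle-rich cells have at least 3% of their UMIs outside mt- genes in 23 contractile and other muscle genes, Myog+ cells hold Myog below that limit, and Pax7+ cells hold Pax7 but neither of these. Pax7 marks satellite cells, the stem cells of muscle, and Myog marks committed myocytes. Pax7+ cells numbered 3098 in KO and 4309 in WT, Myog+ cells 896 in KO and 1103 in WT, and muscle-rich cells 1129 in KO and 1131 in WT. Among the Myog+ cells, 266 in KO and 412 in WT also passed the Pax7 limits. Median UMIs per cell were 39451 in KO and 36220 in WT Pax7+ cells, 42737 and 36028 in KO and WT Myog+ cells, and 49500 and 37988 in KO and WT muscle-rich cells.

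Nuclear respiratory chain genes took a smaller share of UMIs in KO than in WT Pax7+ cells and a larger one in KO than in WT muscle-rich cells, where the difference is gone with TMM and DESeq2 scaling (log2 −0.05 and −0.004). Sums of nuclear genes are percent of UMIs outside mt- genes, and the mt- genes are given as percent or CPM of all UMIs. The 82 nuclear members summed to 3.57% in KO and 4.48% in WT Pax7+ cells, 4.05% in KO and 4.48% in WT Myog+ cells, and 5.36% in KO and 4.66% in WT muscle-rich cells. The sum was thus 0.59 (log2) higher in muscle-rich than in Pax7+ cells of the KO clone and 0.06 higher in those of the WT clone, and these values were 0.84 in KO and 0.40 in WT with TMM and 1.03 in KO and 0.48 in WT with DESeq2 factors. Each of complexes I, III, IV and V was lower in KO than in WT Pax7+ cells, and higher in KO than in WT muscle-rich cells on the CPM scale; with TMM factors complexes IV and V turned to −0.14 and −0.10 (log2) in muscle-rich cells and with DESeq2 factors to −0.09 and −0.06. Complex IV subunits, which pass electrons to oxygen, summed to 1.39% in KO and 1.28% in WT muscle-rich cells, against 0.967% in KO and 1.18% in WT Pax7+ cells. The ATP synthase genes summed to 1.69% in KO and 1.52% in WT muscle-rich cells, against 1.14% in KO and 1.54% in WT Pax7+ cells.

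**Figure D1:**
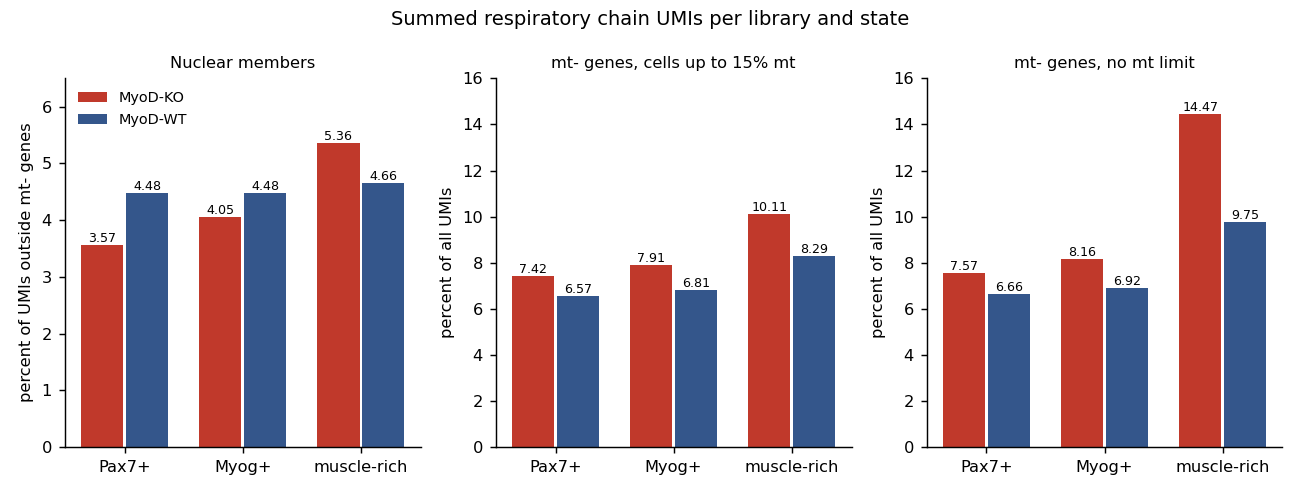
Bars give the percent of UMIs in the 82 nuclear members (of UMIs outside mt- genes) and in the mt- genes (of all UMIs, with and without the limit of 15%) for Pax7+, Myog+ and muscle-rich cells. Each bar is the sum over the cells of 1 state in 1 library, so there is no error between replicates; nuclear sums are 3.57% in KO and 4.48% in WT Pax7+ cells and 5.36% in KO and 4.66% in WT muscle-rich cells.

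Mitochondrially encoded RNA was higher in KO than in WT on the scale of all UMIs in each state. The mt- genes took 7.42% of UMIs in KO and 6.57% in WT Pax7+ cells, 7.91% in KO and 6.81% in WT Myog+ cells, and 10.1% in KO and 8.29% in WT muscle-rich cells. As log2 ratios of KO over WT these differences were 0.18, 0.22 and 0.29 in Pax7+, Myog+ and muscle-rich cells. With the library scaled by TMM, a scaling to the bulk of genes, they were 0.03, −0.01 and 0.06, and by DESeq2's size factors −0.04, 0.02 and 0.11, so the direction in the first 2 states depends on the scale. With cells limited to 10% mt- UMIs the ratio in muscle-rich cells was 0.0227, and as a mean over cells 0.0771. The ratio of mt- to nuclear respiratory chain UMIs of the same cells is free of such scaling by construction. It was 2.25 in KO and 1.57 in WT Pax7+ cells, 2.12 and 1.63 in KO and WT Myog+ cells, and 2.10 and 1.94 in KO and WT muscle-rich cells. In Pax7+ cells it was 0.52 (log2) higher in KO than in WT. Without the limit of 15% mt- UMIs per cell the ratio was 2.30 in KO and 1.59 in WT Pax7+ cells. In muscle-rich cells it was then 3.07 in KO and 2.35 in WT. The KO ratio was thus lower in muscle-rich than in Pax7+ cells with the limit and higher without it. Within the limit, the median over muscle-rich cells was 1.99 in KO and 2.01 in WT.

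The level in muscle-rich cells rests on the limit of 15% mt- UMIs per cell, which is itself set on members. Above this limit lay 653 of 1782 KO (36.6%) and 172 of 1303 WT (13.2%) muscle-rich cells, against 50 of 3148 KO (1.59%) and 47 of 4356 WT (1.08%) Pax7+ cells. Without the limit the mt- genes took 14.5% of UMIs in KO and 9.75% in WT muscle-rich cells, and 7.57% in KO and 6.66% in WT Pax7+ cells. The muscle-rich cells also spread over a wider range than the other states. With no limit, 105 KO (5.89%) and 31 WT (2.38%) of them had at least 49% mt- UMIs, while 163 KO (9.15%) and 84 WT (6.45%) had under 1%. Low shares went with shallow cells: the 227 KO and 77 WT muscle-rich cells within the limit that held under 10000 UMIs had medians of 0.728% in KO and 0.381% in WT. The 902 KO and 1054 WT deeper ones had medians of 10.6% in KO and 8.55% in WT.

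**Figure D2:**
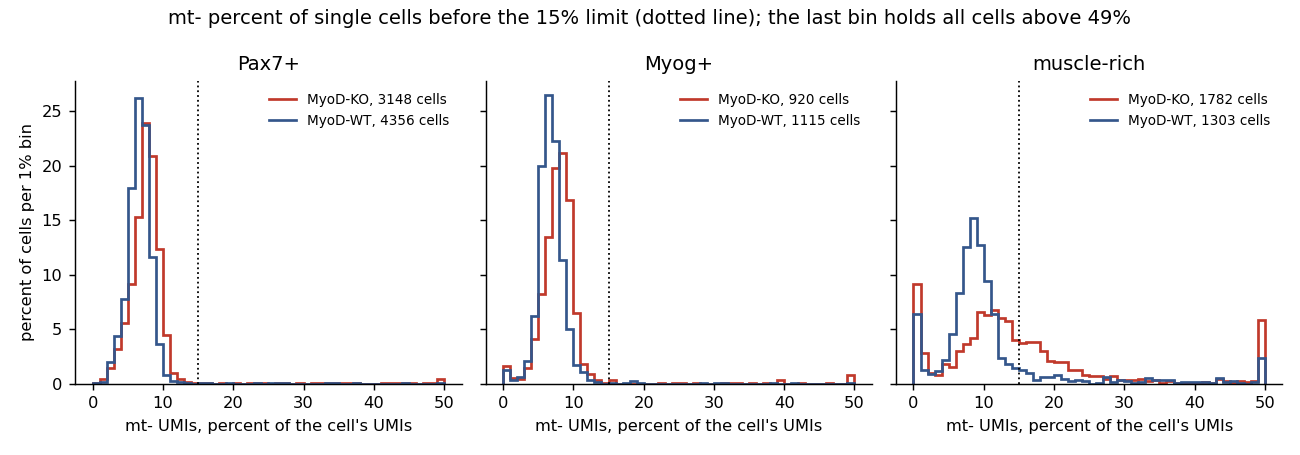
Lines give the percent of cells (vertical axis) in each bin of 1% of mt- UMIs per cell (horizontal axis), before the limit of 15% (dotted line), for each state in the KO and WT libraries; the last bin holds all cells of 49% and more. Muscle-rich cells reach from under 1% to over 49% in both libraries, and 36.6% of KO and 13.2% of WT muscle-rich cells lie above the limit.

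In the comparison of KO with WT Pax7+ cells, which asks how loss of MyoD goes with the progenitor state, 16 of 74 nuclear members lay above a KO over WT ratio of 1, against 57.1% of all genes. A gene counts as higher or lower where the 2 groups differ by at least 1.5-fold and the higher one reaches 10 CPM. Of 74 members at this level, 14 were lower in KO and 1 was higher, where 11% of the 8875 genes at this level were lower and 25% higher. The median log2 ratio was −0.34 over the members and 0.10 over all these genes. Under TMM and DESeq2 scaling the median of all genes moved to −0.07 and −0.14, and the members' median stayed 0.43 to 0.44 below it. Beside this, the sum of 9 fibroblast marker genes was 899 CPM in KO and 118 CPM in WT Pax7+ cells (Lum at 0 in WT). The 8 progenitor markers summed to 908 CPM in KO and to 420 CPM in WT Pax7+ cells, and the 7 markers of commitment to 3446 CPM in KO and 710 CPM in WT Pax7+ cells, and the part of these lists in the result was not tested. Among complex V, Atp5md and Atp5mpl encode small proteins bound to the membrane part of the enzyme. Atp5md was at 345 CPM in KO and at 778 CPM in WT (log2 −1.17), and Atp5mpl at 379 CPM in KO and at 776 CPM in WT (log2 −1.03). Atp5a1, the alpha subunit of the catalytic head, was at 770 CPM in KO and at 1271 CPM in WT (log2 −0.72), and Atp5k and Atp5e had log2 ratios of −0.94 and −0.81. Within complex I, 7 of 37 members were lower in KO: Ndufa2, Ndufa1, Ndufa5, Ndufc1, Ndufa3, Ndufs8 and Ndufb2. Ndufa2, a supernumerary subunit, was at 354 CPM in KO and at 697 CPM in WT (log2 −0.98). Ndufs8, a core subunit that carries iron-sulfur clusters, was at 156 CPM in KO and at 240 CPM in WT (log2 −0.62). Complex III and complex IV each had 1 lower gene, Uqcr11 (log2 −0.65) and Cox7a2 (log2 −0.59).

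Myog+ cells gave a smaller difference of the same direction in the median. The median log2 ratio was −0.12 over members and 0.13 over all genes. Of 75 members, 8 were lower and 2 higher in KO, against 8.98% lower and 22.1% higher of all 8444 genes. The share of lower members was thus near that of all genes, and the share of higher members was smaller. Among the higher genes was Atp5d, the delta subunit of ATP synthase, at 818 CPM in KO and at 545 CPM in WT. Atp5mpl, Ndufa2 and Atp5md had log2 ratios of −0.96, −0.91 and −0.86, beside −1.03, −0.98 and −1.17 in Pax7+ cells. The fibroblast markers summed to 297 CPM in KO and 44.0 CPM in WT Myog+ cells, and the markers of commitment to 9662 CPM in KO and 4257 CPM in WT.

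In muscle-rich cells 56 of 76 members lay above a KO over WT ratio of 1 on the CPM scale, against 57.7% of all genes, and fewer differed by the size rule. On the CPM scale, 20 of 76 members were higher and 3 lower in KO, against 24% higher and 12.1% lower of all 8073 genes, so the share of higher members was near that of all genes. The median log2 ratio was 0.27 over members and 0.11 over all genes. TMM and DESeq2 scaling moved the median gene to −0.16 and −0.10 and left 5 and 7 members higher and 5 and 5 lower, while the members' median stayed 0.16 to 0.18 above it. By the same measure the sum of the nuclear members went from 0.20 (log2) above WT on the CPM scale to −0.05 with TMM. Muscle gene content moved with the result: muscle genes took a median of 10.5% in KO and 7.45% in WT muscle-rich cells. Cells with 6 to 12% muscle genes held 5.27% nuclear respiratory chain UMIs in KO and 4.63% in WT, those with 3 to 6% held 4.42% and 4.53%, and those with more than 12% held 6.06% and 6.15% in KO and WT. The nuclear sum was therefore higher in KO in the middle range and slightly lower in the 2 others. Restricting all muscle-rich cells to the middle range left 19 members higher. The fibroblast markers summed to 156 CPM in KO and 21.9 CPM in WT muscle-rich cells and the immune markers to 82.9 and 128 in KO and WT, with Ptprc and Tyrobp at 0; their part was not tested. Ndufb10, a subunit of the membrane arm of complex I, was at 623 CPM in KO and at 301 CPM in WT (log2 1.05). Ndufv2, which carries an iron-sulfur cluster in the arm that binds NADH, was at 355 CPM in KO and at 176 CPM in WT (log2 1.01). Atp5d was at 1288 CPM in KO and at 681 CPM in WT (log2 0.92). In complex III, 4 of 8 genes were higher on the CPM scale: Uqcrc2, Uqcrfs1, Uqcrc1 and Uqcrh, with log2 ratios of 0.70, 0.69, 0.67 and 0.59. The complex III sum went from 0.27 (log2) on the CPM scale to 0.02 with TMM and 0.07 with DESeq2 factors. The same factors apply to each gene, and with either of them all 4 genes lie below the 1.5-fold rule. Uqcrc1 and Uqcrc2 encode the core proteins and Uqcrfs1 the Rieske iron-sulfur protein. The 3 lower genes were Ndufa3, Atp5mpl and Ndufa2, with log2 ratios of −0.79, −0.65 and −0.62, and all 3 were also lower in KO Pax7+ and KO Myog+ cells.

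Between states of the KO clone, most members were higher in muscle-rich than in Pax7+ cells. Of 77 members, 42 were higher and 1 lower, where 17.4% of 9247 genes were higher and 45.3% lower. The median log2 ratio was 0.60 over members and −0.47 over all genes. In the WT clone 7 of 75 members were higher and 4 lower, where 17.7% of 8526 genes were higher and 45% lower, with medians of 0.03 over members and −0.47 over all genes. A typical member therefore kept its CPM level in WT muscle-rich cells while the median gene was lower. Relative to the median gene, the members' median was 1.07 higher in KO and 0.50 higher in WT, and other scalings moved these values to between 1.04 and 1.07 and between 0.49 and 0.51. The step to Myog+ cells was small. Between Myog+ and Pax7+ cells, 1 of 74 members was higher and 1 lower in KO (8.86% and 18.1% of all genes), and 3 of 75 were higher and none lower in WT (8.06% and 13.1%). In KO, Ndufv3 was the higher and Cox6b2 the lower one, and in WT the 3 higher ones were Cox6a2, Cox8b and Ndufv3. Cox6a2 and Cox8b were not counted in KO because they stayed below 10 CPM in both states. They were at 9.50 and 7.18 CPM in KO Myog+ cells, against 4.68 and 3.02 CPM in KO Pax7+ cells. In KO 72 of the 74 members lay above a ratio of 1, where 41.7% of all genes did, and in WT 34 of 75 did, where 32.7% of all genes did.

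Of the 75 nuclear members at 10 CPM in both clones, 68 (90.7%) had a larger muscle-rich over Pax7+ ratio in KO than in WT, against 3994 of 8232 genes (48.5%). The median difference of the log2 ratios was 0.57 over members and −0.02 over all genes, and it reached 1.5-fold for 35 members (46.7%) and 1025 genes (12.5%). The lower Pax7+ level and the higher muscle-rich level of the KO clone both enter this difference, which is the difference of the comparisons above and no separate evidence. The exceptions included Atp5g2, Cox6a2, Cox7a2l, Cox8b, Ndufa3 and Ndufa7. The 7 members higher in both clones were Atp5mpl, Cox6a2, Cox8b, Ndufa3, Ndufa7, Ndufv3 and Uqcrb. Ndufv3, a small subunit of the NADH-binding arm, was at 342 CPM in KO and at 233 CPM in WT muscle-rich cells, against 142 in KO and 125 in WT Pax7+ cells. Uqcrb, a complex III subunit that binds ubiquinone, was at 674 CPM in KO and at 560 CPM in WT muscle-rich cells, against 397 in KO and 373 in WT Pax7+ cells. In KO alone, Ndufs5, Ndufa11 and Ndufb8 passed 2-fold, with log2 ratios of 1.12, 1.09 and 1.07, where WT had 0.28, 0.25 and 0.03. By complex, 19 of complex I, 5 of complex III, 8 of complex IV and 10 of complex V were higher in KO, and 3, 1, 2 and 1 in WT. The 4 lower members in WT were Cox6a1, Ndufs8, Ndufs1 and Uqcrc2, with log2 ratios of −0.99, −0.72, −0.67 and −0.62, and 1 member was lower with TMM and 0 with DESeq2 factors. Ndufs1, the largest core subunit of complex I, was at 164 CPM in KO and at 94.3 CPM in WT muscle-rich cells, against 128 in KO and 150 in WT Pax7+ cells.

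**Figure D3:**
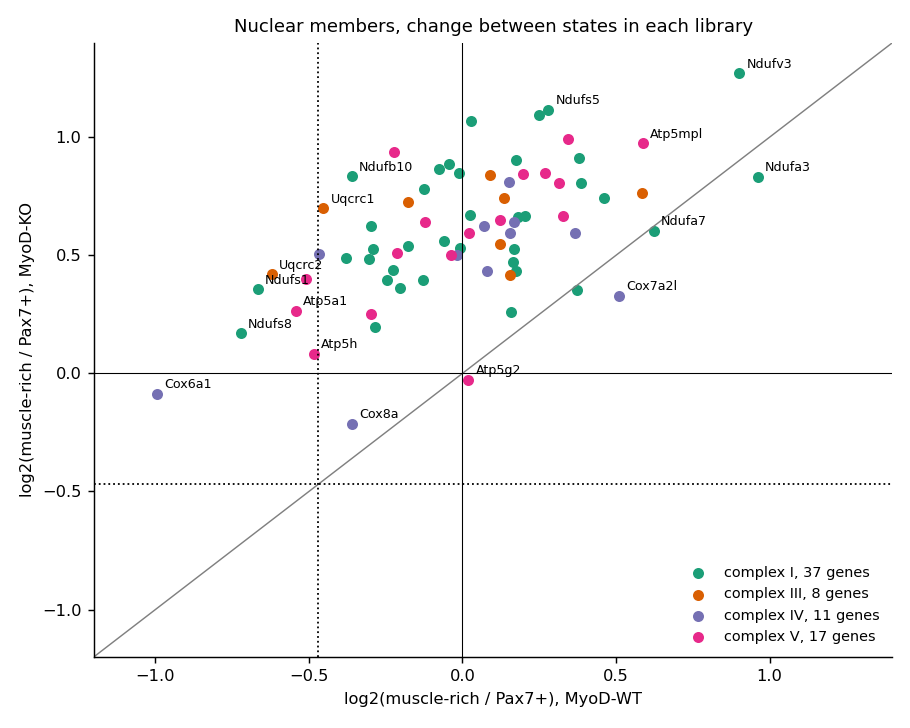
Each point is 1 nuclear member with at least 10 CPM in both clones, coloured by complex, with its log2 ratio of muscle-rich over Pax7+ cells in KO (vertical axis) and in WT (horizontal axis); Cox6a2 and Cox8b lie outside the axes. Points above the diagonal have a larger ratio in KO, and the dotted lines mark the median of all genes (−0.47 in each clone).

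The muscle forms of complex IV showed the largest differences between states. Promoters are shown for the pair of Cox8b (muscle) and Cox8a (ubiquitous), for Cox7a1, another muscle form, and for Cox6a1, another ubiquitous form. The muscle forms are shown because they differ in level between states, and the ubiquitous forms stand beside them. The sequences are RefSeq's for GRCm38.p6, from 250 bases before to 50 bases after the gene start, written along the gene's strand. They are from Cox8b at chr7:140900397-140900696 (minus strand), Cox7a1 at chr7:30183921-30184220 (plus strand), Cox8a at chr19:7217567-7217866 (minus strand) and Cox6a1 at chr5:115348909-115349208 (minus strand). Capitals mark CAGCTG in Cox8b, CANNTG in Cox7a1, CCGGAAG in Cox8a, and the NRF1 motif, which is GCGC, any base and TGCGC, in Cox6a1, each as these letters or as their reverse complement.
Cox8b: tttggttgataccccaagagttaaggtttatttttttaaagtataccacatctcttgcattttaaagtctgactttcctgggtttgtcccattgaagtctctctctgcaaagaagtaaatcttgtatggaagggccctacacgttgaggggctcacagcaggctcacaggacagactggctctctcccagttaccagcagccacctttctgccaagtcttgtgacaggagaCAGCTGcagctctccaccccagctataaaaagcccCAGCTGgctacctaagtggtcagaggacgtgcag
Cox7a1: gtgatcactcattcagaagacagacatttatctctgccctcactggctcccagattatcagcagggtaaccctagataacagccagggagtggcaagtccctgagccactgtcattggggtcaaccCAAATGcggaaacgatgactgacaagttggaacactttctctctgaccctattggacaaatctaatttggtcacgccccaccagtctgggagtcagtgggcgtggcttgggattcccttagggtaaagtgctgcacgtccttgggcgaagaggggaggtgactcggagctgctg
Cox8a: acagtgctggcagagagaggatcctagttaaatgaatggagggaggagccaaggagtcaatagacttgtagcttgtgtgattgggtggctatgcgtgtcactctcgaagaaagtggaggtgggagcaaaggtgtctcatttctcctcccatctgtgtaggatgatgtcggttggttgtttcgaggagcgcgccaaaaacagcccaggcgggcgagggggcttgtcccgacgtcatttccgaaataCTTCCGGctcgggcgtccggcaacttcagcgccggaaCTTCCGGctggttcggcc
Cox6a1: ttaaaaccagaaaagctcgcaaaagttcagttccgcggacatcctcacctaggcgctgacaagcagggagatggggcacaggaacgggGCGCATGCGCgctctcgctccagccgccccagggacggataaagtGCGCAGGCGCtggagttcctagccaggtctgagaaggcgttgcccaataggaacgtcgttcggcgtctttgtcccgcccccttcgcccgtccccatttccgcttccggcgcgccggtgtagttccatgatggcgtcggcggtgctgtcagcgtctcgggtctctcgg
CANNTG is the E-box core that myogenic factors such as MyoD and Myog bind, and CAGCTG is one form of it, so each CAGCTG is also counted as CANNTG. The NRF1 motif is bound by the factor of that name and CCGGAAG is an ETS core that GABP binds, and both factors are known regulators of respiratory chain genes. All were searched on both strands. Only 1 motif is marked in each sequence, so the capitals do not compare the promoters. Cox8a also holds 1 CANNTG, as Cox7a1 does, and Cox6a1 also holds 1 CCGGAAG, both left in small letters. CANNTG occurred in 72.3% of all 32851 promoters and in 69.0% of 71 promoters of 66 matched members, and CAGCTG in 16.3% and 8.45%. The NRF1 motif occurred in 4.60% of all promoters and 22.5% of the members' promoters, and CCGGAAG in 8.86% and 21.1%. A match describes letters and not binding.

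Cox6a2 and Cox8b were near 0 in Pax7+ cells and abundant in muscle-rich cells of both clones. Cox6a2 was at 428 CPM in KO and at 536 CPM in WT muscle-rich cells, 9.50 CPM in KO and 44.4 CPM in WT Myog+ cells, and 4.68 CPM in KO and 4.09 CPM in WT Pax7+ cells. Its share of all Cox6a1 and Cox6a2 UMIs was 56.4% in KO (95% Clopper-Pearson interval 55.9 to 56.9) and 75.3% in WT (74.8 to 75.8) muscle-rich cells. The lower KO share came with both genes: Cox6a1 was at 330 CPM in KO and at 176 CPM in WT muscle-rich cells, against 351 in KO and 350 in WT Pax7+ cells. The muscle-rich over Pax7+ ratio of Cox6a1 was −0.09 (log2) in KO, where TMM (0.16), DESeq2 (0.36) and CPM outside mt- and muscle genes (0.065) turn the sign, and −0.99 in WT, where none of these did. The gap between clones held at matched muscle gene content. At 3 to 6, 6 to 12 and over 12% muscle genes the share was 39.7%, 54.2% and 65.9% in KO and 63.9%, 79.4% and 88.3% in WT. Single cells covered a broad range: among muscle-rich cells with at least 10 UMIs of the pair, the median share was 55.7% in KO (886 cells) and 77.4% in WT (1017 cells). A share over 90% was found in 2.48% of these KO cells and 18.0% of these WT cells.

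In Myog+ cells the Cox6a2 level was lower in KO by 2.22 on the log2 scale (interval −2.39 to −2.06). With muscle-rich cells taken from 1.5% muscle genes this ratio was −1.27, and muscle genes took a median of 0.249% in KO and 0.547% in WT Myog+ cells. With each cell thinned to 5000 UMIs, Cox6a2 was found in 3.74% of KO and 14.1% of WT Myog+ cells (23.3% and 40.1% unthinned). Pax7+ cells, which give the background, had it in 2.19% in KO and 1.60% in WT after thinning (16.3% and 11.1% unthinned), so the KO Myog+ level lies near background. In all cells with 1 to 3% muscle genes, a range just below the muscle-rich limit, the Cox6a2 share of its pair was 8.04% in KO and 30.9% in WT, and under 1% it was 1.36% in KO and 1.30% in WT. Muscle-rich cells had it in 75.3% in KO and 85.2% in WT after thinning, which left out 118 KO and 29 WT cells with fewer UMIs.

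Cox8b followed the same order of states at a lower level. It was at 167 CPM in KO and at 218 CPM in WT muscle-rich cells, against 3.02 in KO and 3.40 in WT Pax7+ cells, and at 7.18 in KO and 17.2 in WT Myog+ cells. Cox8a stayed the main form everywhere, at 1338 CPM in KO and at 1555 CPM in WT muscle-rich cells, and Cox8b made up 11.1% of the pair in KO and 12.3% in WT. After thinning, 48.1% of KO and 49.5% of WT muscle-rich cells held Cox8b (89.0% and 89.3% unthinned), against 1.61% of KO and 1.56% of WT Pax7+ cells.

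Cox7a1 differed in the other direction between clones. It was at 49.3 CPM in KO and at 8.22 CPM in WT muscle-rich cells (log2 2.58, interval 2.42 to 2.75), and at 5.89 in KO and 0.815 in WT Pax7+ cells. The ratio of muscle-rich over Pax7+ cells was alike in size in the clones, 3.06 in KO and 3.33 in WT on the log2 scale, though WT stayed below 10 CPM. Its share of the Cox7a1 and Cox7a2 pair was 4.43% in KO and 0.693% in WT muscle-rich cells. After thinning, 18.1% of KO and 3.81% of WT muscle-rich cells held it (62.8% and 16.3% unthinned), against 2.97% of KO and 0.418% of WT Pax7+ cells.

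**Figure D4:**
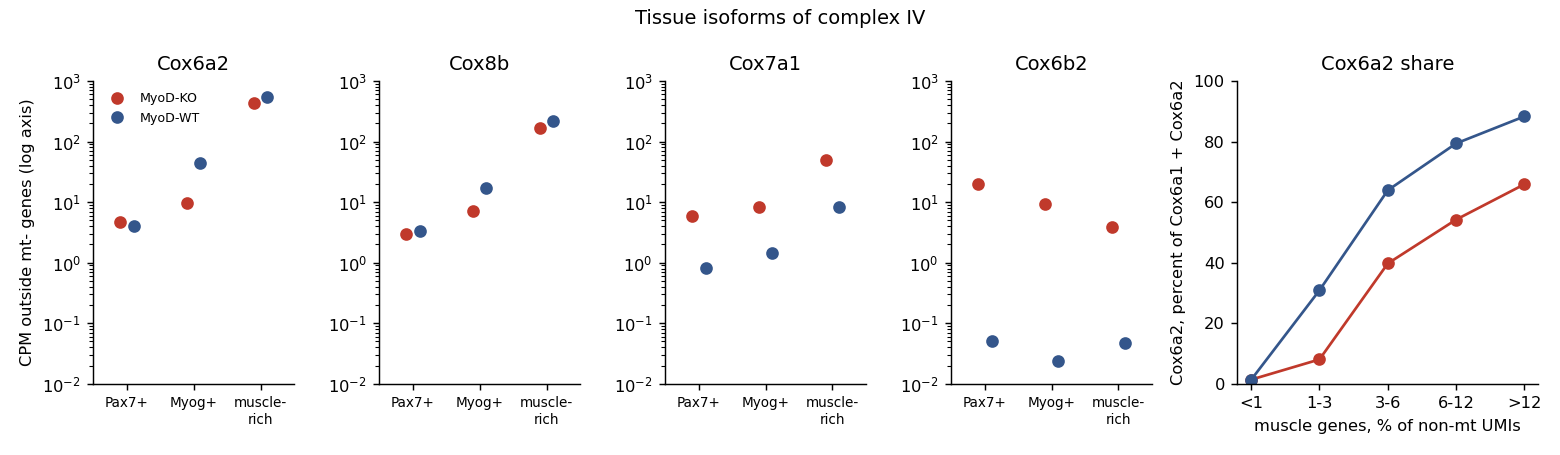
The first 4 panels give Cox6a2, Cox8b, Cox7a1 and Cox6b2 CPM (log axis) in each state, 1 point per library, and the last panel gives Cox6a2 as percent of Cox6a1 plus Cox6a2 by muscle gene content of the cells. Cox6a2 and Cox8b lie highest in muscle-rich cells of both clones, Cox7a1 lies higher in KO in each state, and the Cox6a2 share lies higher in WT at each muscle gene content above 1%.

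Cox6b2, known as a testis form of a complex IV subunit, was found almost only in the KO clone. It was at 20.02 CPM (2474 UMIs) in KO and 0.0514 CPM (8 UMIs) in WT Pax7+ cells, a log2 ratio of 8.61 with an interval of 7.63 to 9.82. In the KO clone it was at 9.26 CPM in Myog+ and 3.88 CPM in muscle-rich cells, a log2 ratio of −2.37 for muscle-rich over Pax7+ cells. After thinning it was found in 7.42% of KO and 0.0232% of WT Pax7+ cells (28.7% and 0.139% unthinned). All kept WT cells together held 13 UMIs of it. Cox4i2, a form known from lung, was at 1.63 CPM in KO (201 UMIs) and 0.128 CPM in WT (20 UMIs) Pax7+ cells, below the limit of 10 CPM in both. Cox7b2 had 1 UMI in the KO library and Cox8c none in either. Together with Cox5b-ps and Ndufb11b, Cox4i2, Cox7b2 and Cox8c were the 5 nuclear members that stayed under 10 CPM in every group; the other 77 reached it.

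Mitochondrial mRNAs did not all change alike between states. On the scale of all UMIs, mt-Nd4 and mt-Cytb were 0.78 and 0.66 (log2) higher in muscle-rich than in Pax7+ cells of KO, and 0.72 and 0.66 higher in those of WT. mt-Nd4 encodes a membrane subunit of complex I and mt-Cytb the cytochrome b of complex III. The catalytic subunit of complex IV, mt-Co1, was 0.48 higher in KO and 0.03 higher in WT, and mt-Nd5 was 0.34 and 0.01 higher in KO and WT. For the ATP synthase, mt-Atp6 was 0.35 and 0.23 higher in KO and WT, while mt-Atp8 had 0.05 in KO and −0.36 in WT, where TMM and DESeq2 scaling turn the sign. The other mt- mRNAs lay between: mt-Nd1, mt-Nd2 and mt-Nd3 had 0.32, 0.33 and 0.24 in KO and 0.16, 0.27 and 0.22 in WT, and mt-Co2 and mt-Co3 had 0.57 and 0.49 in KO and 0.43 and 0.35 in WT. mt-Nd4l had 0.61 in KO and 0.15 in WT. By the same size rule on the scale of all UMIs, 3 of 13 mt- mRNAs were higher and 1 lower in KO, and 2 higher and 1 lower in WT. Outside mt- genes, 17.4% of all genes were higher and 45.3% lower in KO, and 17.7% higher and 45% lower in WT. These mt- mRNA ratios and counts hold within the limit of 15% mt- UMIs, which is set on the same genes. Without it, mt-Nd1, mt-Co1, mt-Co2 and mt-Atp6 had 0.78, 0.92, 1.05 and 0.87 in KO. In WT they had 0.33, 0.24, 0.64 and 0.45. The rRNAs depended on the limit as well: mt-Rnr1, of the small ribosomal subunit, had −0.33 in KO and −0.25 in WT with the limit of 15% and 0.37 in KO and 0.09 in WT without it. mt-Rnr2 had 0.10 in KO and 0.52 in WT with the limit, and 0.87 in KO and 0.91 in WT without it. The poly(A) capture of this assay targets mRNAs, and mitochondrial rRNAs carry only short A tails.

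The lower gene in both clones was mt-Nd6, the one protein gene on the light strand of mitochondrial DNA. It was at 57.0 CPM in KO and at 30.0 CPM in WT muscle-rich cells, against 123 in KO and 65.7 in WT Pax7+ cells. The log2 ratio was −1.12 in KO and −1.13 in WT, and −0.83 and −0.89 without the limit on mt- UMIs. As a share of the mt- mRNAs it had log2 ratios of −1.60 in KO and −1.47 in WT, and with TMM (−0.82 in KO and −0.77 in WT) and DESeq2 factors (−0.63 in KO and −0.69 in WT) it kept its direction. Between clones, mt-Nd6 was higher in KO in each state, by 0.91 in Pax7+, 1.20 in Myog+ and 0.93 in muscle-rich cells. mt-Nd4l went the other way, at 178 CPM in KO and at 356 CPM in WT Pax7+ cells (log2 −1.002), with −0.79 in Myog+ and −0.54 in muscle-rich cells. mt-Nd6 lies opposite the end of mt-Nd5, and mt-Nd4l overlaps mt-Nd4 as mt-Atp8 overlaps mt-Atp6, and the strand setting of the counting is not given in the sources used here. Reads of these partners can therefore not be assigned with certainty. The 22 tRNAs together had 2954 UMIs in KO and 3481 in WT, and all stayed below 10 CPM; tRNAs carry no poly(A) tail and are not the target of this capture.

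**Figure D5:**
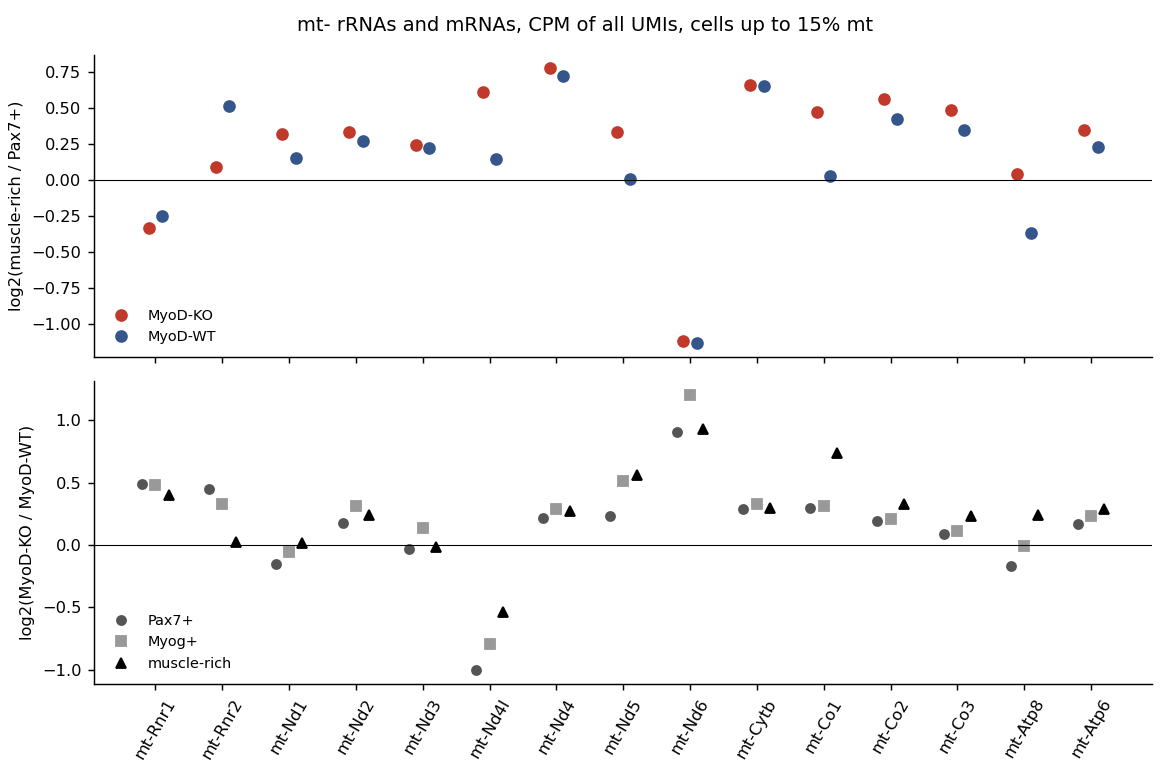
For the 2 rRNAs and 13 mRNAs of mitochondrial DNA, the upper panel gives the log2 ratio of muscle-rich over Pax7+ cells in KO and WT, and the lower panel the log2 ratio of KO over WT in each state, CPM of all UMIs in cells up to 15% mt-. mt-Nd6 lies at −1.12 in KO and −1.13 in WT in the upper panel, and in the lower panel mt-Nd6 lies highest and mt-Nd4l lowest in each state.

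Genes that build and serve the respiratory chain were counted in lists chosen by role. In muscle-rich over Pax7+ cells, 17.4% of all genes were higher and 45.3% lower in KO, and 17.7% higher and 45% lower in WT. For complex II, which the symbol rule leaves out, none of 4 genes was higher or lower in KO muscle-rich over Pax7+ cells and 2 were lower in WT. Its iron-sulfur subunit Sdhb was at 219 CPM in KO and at 116 CPM in WT muscle-rich cells, against 168 in KO and 191 in WT Pax7+ cells. Another list held Cycs, Cyc1, Slc25a3, Slc25a4, Slc25a5, Vdac1, Vdac2, Vdac3, Ckmt1 and Ckmt2. Of its genes that reached 10 CPM, 5 of 9 were higher in KO muscle-rich over Pax7+ cells, and of 8 in WT none was higher and 2 were lower. Cycs, cytochrome c, was at 924 CPM in KO and at 738 CPM in WT muscle-rich cells, against 456 in KO and 928 in WT Pax7+ cells. Slc25a4, the ADP/ATP carrier of heart and muscle, was at 1838 CPM in KO and at 788 CPM in WT muscle-rich cells. Assembly factors of complexes III to V had 8 higher and 0 lower of 27 in KO, and 2 higher and 3 lower in WT. The complex I assembly list, which also holds the subunit gene Ndufab1 that the symbol rule leaves out, had 2 higher and 2 lower of 14 in KO, and 1 higher and 6 lower in WT. For the mitochondrial ribosome, 8 of 78 genes were higher and 2 lower in KO, and 2 higher and 21 lower in WT. In muscle-rich cells of KO over WT, 25 genes of this list were higher, and 24% of all 8073 genes were. The first value is a count and the second a percent, so the 2 cannot be compared directly. For the TCA cycle, 4 of 17 genes were higher and 2 lower in KO, and 0 higher and 6 lower in WT.

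Of 9 regulators of mitochondrial genes, 1 was higher and 5 lower in muscle-rich over Pax7+ cells of both KO and WT, near the share of all genes that was lower (45.3% in KO and 45% in WT). Nrf1, a transcription factor of nuclear respiratory chain genes, was at 20.7 CPM in KO and at 29.7 CPM in WT muscle-rich cells, against 71.7 in KO and 103 in WT Pax7+ cells. The higher one was Esrrg, a nuclear receptor of oxidative muscle, at 57.3 CPM in KO and at 37.5 CPM in WT muscle-rich cells, against 2.40 in KO and 1.16 in WT Pax7+ cells. Its relative Esrra was at 45.8 CPM in KO and at 23.0 CPM in WT muscle-rich cells, against 33.3 in KO and 32.6 in WT Pax7+ cells. For the genes that copy and read mitochondrial DNA, 0 of 13 were higher and 2 lower in KO, and 1 of 14 was higher and 6 lower in WT. Tfam, which packages mitochondrial DNA, was at 28.8 CPM in WT muscle-rich and 60.4 in WT Pax7+ cells.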

How the data were processed

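Both deposited matrices hold unnormalized counts of UMIs for each gene in each barcode, written by Cell Ranger 7.2.0 according to the file headers. The submitters' processing notes list GRCm39 and Seurat but give no roles. The annotation release and the treatment of strand and of reads matching several places are not given in the sources used here, so members with near-identical pseudogenes are uncertain. RefSeq sequences are of GRCm38.p6, another build, and were matched by symbol.

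Cells with at least 1000 genes and at most 15% mt- UMIs were kept. Muscle-rich cells had at least 3% of UMIs outside mt- genes in 23 muscle genes. Other cells with at least 2 Myog UMIs and 200 CPM were Myog+, and the rest with at least 2 Pax7 UMIs and 50 CPM were Pax7+. Doublets were not removed: Scrublet (scanpy 1.11.5, expected rate 0.06) called 144 KO cells (2.49%) but 2 WT cells (0.0273%), a rate at which the caller has not worked in WT, and leaving out the 6% of cells with the highest scores was an alternative. Counts were summed per library and state. Ratios have exact conditional Poisson intervals and shares Clopper-Pearson intervals at 95%. Cell shares were also taken after thinning each cell to 5000 UMIs. Alternatives changed the cell limits, state limits, low-value filter, size rule, denominator, summing and scale, the last with TMM (edgeR 4.0.16) and size factors (DESeq2 1.42.0). The size rule and the counting intervals were tried on Poisson counts simulated from the WT Pax7+ sums. Such counts hold no variation between clones, and state sorting, thinning and scaling were not part of this simulation.

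The members, lists and states were chosen with earlier results of these data known. Named genes are all mt- genes, both genes of each tissue pair, the 2 highest and 2 lowest ratios per complex at 10 CPM or more in the comparisons, members past 2-fold, and up to 3 genes per pathway list. Other members that make up a short count or were noticed for their values are named after these were seen. Some single-gene results are not reported here.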

Additional observations from a re-analysis of the deposited data

Results flagged for a closer look

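The sum of the nuclear members differed from WT in opposite directions in the 2 states, where muscle-rich cells had a KO over WT log2 ratio of 0.20 and Pax7+ cells one of −0.33. With TMM factors the muscle-rich value was −0.05 and with DESeq2 size factors −0.004, so the opposite directions hold on the CPM scale and not under these scalings. With 1 library per genotype the difference between states was not tested.

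For 7 members, the muscle-rich over Pax7+ ratio lay above 0.32 (log2) in KO and below −0.32 in WT, outside the counting intervals. The log2 ratios in KO and WT were 0.36 and −0.67 for Ndufs1, 0.42 and −0.62 for Uqcrc2, 0.50 and −0.47 for Cox5a, 0.70 and −0.45 for Uqcrc1, 0.40 and −0.51 for Atp5b, 0.84 and −0.36 for Ndufb10 and 0.49 and −0.38 for Ndufv1. They include core subunits of complex I, both core proteins of complex III, a subunit of complex IV and the beta subunit of ATP synthase. With other scalings the WT values moved towards 0: with TMM only Ndufs1 stayed below −0.32 (−0.328), and with DESeq2 size factors none of the 7 did, with values of −0.25 for Ndufs1 to 0.06 for Ndufb10. Opposite directions of this size were therefore absent with DESeq2 size factors, while with TMM the WT value of Ndufs1 still passed the limit. On the CPM scale the median gene had a ratio of −0.47 in both clones, and the WT values of these members lie on both sides of it. On the scale of UMIs outside mt- and muscle genes the WT median gene was at −0.36, a smaller move than with TMM (−0.11) or DESeq2 (−0.02). The values of the 7 members on that scale are not given here. None of these differences was tested.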

How the results depend on the processing

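No paired analysis was possible because each genotype has 1 library. The count of nuclear members lower in KO Pax7+ cells (14) was 28 with TMM, 36 with DESeq2 size factors, 2 at a size rule of 2-fold and 40 at the looser one. Under the same alternatives, the count higher in KO muscle-rich cells (20) was 5, 7, 3 and 37, the count higher in KO muscle-rich over Pax7+ cells (42) was 66, 73, 7 and 67, and the WT count (7) was 20, 28, 2 and 15, and 4 with muscle-rich cells taken from 1.5%. These counts stayed within 1.5 times of the reported ones under the other alternatives. The KO over WT log2 ratio of the mt- share in Pax7+ cells (0.18) was 0.185 without the limit on mt- UMIs, 0.145 at 10%, 0.183 without high doublet scores, 0.177 with muscle-rich cells from 6%, 0.173 and 0.177 with Myog from 100 and 400 CPM, 0.170 and 0.185 with Pax7 from 20 and 100, 0.0272 with TMM, −0.0409 with DESeq2 and 0.188 outside mt- and muscle genes. The muscle-rich over Pax7+ ratio of that share in KO (0.45) was 0.94 without the limit, 0.0339 at 10%, 0.435 without a minimum of genes, 0.473 from 2000 genes, 0.443 without high doublet scores, 0.433 and 0.469 with muscle-rich cells from 1.5% and 6%, 0.448 and 0.444 with the Myog and 0.451 and 0.442 with the Pax7 limits, 0.74 with TMM, 0.93 with DESeq2, 0.64 outside mt- and muscle genes, 0.17 as a mean over cells and 0.473 from 10000 UMIs. In WT (0.33) it was 0.55, 0.157, 0.332, 0.350, 0.379, 0.316 and 0.383 under the first 7 of these, 0.340 with Pax7 from 100, and 0.70, 0.78, 0.47, 0.27 and 0.347 under the last 5. In cells with 6 to 12% muscle genes, an alternative chosen after seeing the data, it was 0.436 in KO and 0.388 in WT. The direction of the state difference was the same throughout, while its size in KO depends on the mt- limit, which is set on the same genes. The KO over WT log2 ratio of the mt- share of all UMIs to the nuclear share of UMIs outside mt- genes in Pax7+ cells (0.50) was 0.513 without the limit, 0.478 at 10%, 0.499 with Pax7 from 100 and 0.498 as a mean over cells. Over 1 denominator it was 0.516, which any scaling leaves as it is by construction. The Cox6a2 share in KO muscle-rich cells (56.4%) was 60.1% without the limit, 55.3% at 10%, 57.9% without high doublet scores, 54.6% and 58.5% with muscle-rich cells from 1.5% and 6%, 59.3% as a mean over cells and 54.2% at 6 to 12% muscle genes. In WT (75.3%) it was 74.7%, 77.9%, 71.6%, 80.4%, 78.5% and 79.4% under the same alternatives after the first. Where counting sets the limit, as for Cox6b2 in WT, the ratio of the clones has the wide interval given; the cause of the moves was not tested.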
